A study of Mus musculus with 12 samples.

Results

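The genes described here encode the subunits of the oxidative phosphorylation machinery that are read from nuclear chromosomes. Members were the protein-coding genes whose RefSeq symbol begins with Nduf (complex I, without the Ndufaf assembly factors), Uqcr, Cox4 to Cox8 or Atp5, or is Sdha, Sdhb, Sdhc, Sdhd or Cyc1, with a mean of at least 10 counts over the 12 libraries. Of 89 RefSeq genes with such a symbol, 88 were listed in the deposited table, and 81 of the 27179 listed genes met the minimum. They were 37 genes of complex I, 4 of complex II, 8 of complex III, 15 of complex IV and 17 of complex V. Ndufb1 was not analysed here. The 7 genes under the minimum were Ndufb4c with a mean of 5.08 counts, Ndufa4l2 with 2, Uqcr11 with 1.17, Cox8b and Cox8c with 0.583 each, Cox7b2 with 0.417 and Ndufb4b with 0.333. The members nearest above it were Cox7a1 with 27.3 counts and Cox4i2 with 96.3. All 81 members passed the filter on low counts before testing.

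Oxidative phosphorylation takes place in the inner mitochondrial membrane. Complexes I and II pass electrons from NADH and succinate to coenzyme Q, complex III passes them to cytochrome c, and complex IV to oxygen, and complex V makes ATP from the proton gradient that results. Most subunits are encoded in the nucleus and join a few subunits encoded by mitochondrial DNA. Hematopoietic stem cells, which sustain all blood lineages, are known for a low respiration at rest that rises when they divide and differentiate.

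RNA came from sorted hematopoietic stem cells of C57BL/6J mice of 4 genotypes, with 3 mice and 3 libraries each. Group WT (WT2, WT3 and WT4) was wild type. Group E (E1 to E3) carried the Emu-myc transgene, which places Myc under the immunoglobulin heavy chain enhancer, an element most active in the B lineage. Group C (C1 to C3) lacked Casp1 and Casp11, the inflammatory caspases of the pyroptosis pathway, and group CE (CE1 to CE3) combined the transgene with that double knockout. Casp11 is listed as Casp4. The labels do not state the age or sex of the mice, the sorting gate or any batch. Libraries held 24529611 to 34065910 counts. Casp1 was at 29.8 to 47.8 CPM (the count of a gene relative to the effective size of its library) in WT, 37.8 to 45.1 in E, 5.10 to 6.39 in C and 5.72 to 6.76 in CE. Casp4 was at 12.04 to 14.5, 12.5 to 17.2, 7.07 to 9.96 and 9.001 to 13.7 CPM in the same order, so that its E and CE libraries overlapped in range. Myc, whose count could include transgene transcripts, was at 394 to 447 CPM in WT, 424 to 449 in E, 319 to 337 in C and 345 to 410 in CE. The stem cell markers Procr, Mecom, Hlf, Slamf1, Kit, Fgd5 and Hoxb5 were detected, with Hoxb5 near 1 CPM and Kit at 364 to 508 CPM over the 12 libraries.

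Features of the libraries other than the labels bear on every comparison of the knockout. Y-linked transcripts summed to 91.4 to 121 CPM in the 3 C libraries and in CE1 and CE2, and to at most 0.263 CPM in the other 7 libraries, so that Y-linked RNA and the knockout coincided except in CE3. The immediate early genes Fos, Fosb, Jun, Junb, Egr1, Atf3, Nr4a1 and Ier2 summed to 12366 to 13161 CPM in C and 11550 to 13983 in CE, against 5127 to 6582 in E and 4591 to 11300 in WT. By the threshold given below, 4 of these 8 were higher in CE against E, where 0.477% of all genes were. In C against WT 0 of 8 were, and 0.359% of all genes. C1 and C3 also listed 22900 and 21247 genes with a count, against 17310 to 18863 in the others. The part of these features in the results below was not tested, except by the alternative settings named beside them.

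The promoters of the members were searched for short motifs, a feature that the choice of genes did not use. RefSeq promoter windows (250 bases before to 50 after the transcription start, GRCm38.p6) were available for 66 of the 81 members and for 17491 protein-coding promoters in all. The letters AAGATGGC, the core of the YY1 motif, were present on either strand in 10 of the 66 members with a window (15.2%) and in 3.57% of all genes with one. Complex I held 7 of these 10, among its 33 genes with a window, and they are shown because all 7 have the letters on the gene's own strand in a narrow interval, 23 to 39 bases from the first transcribed base. In the 30-base windows below, written 5' to 3' along the gene, capitals mark the motif.
Ndufa3 (chr7:3617384-3617413, plus strand): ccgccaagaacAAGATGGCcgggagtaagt
Ndufa9 (chr6:126849097-126849126, minus strand): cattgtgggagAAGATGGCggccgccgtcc
Ndufb8 (chr19:44555393-44555422, minus strand): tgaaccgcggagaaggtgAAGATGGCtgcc
Ndufc1 (chr3:51408915-51408944, minus strand): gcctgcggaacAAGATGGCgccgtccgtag
Ndufs4 (chr13:114388045-114388074, minus strand): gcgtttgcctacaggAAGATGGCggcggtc
Ndufs6 (chr13:73328433-73328462, minus strand): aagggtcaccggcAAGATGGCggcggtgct
Ndufs7 (chr10:80249462-80249491, plus strand): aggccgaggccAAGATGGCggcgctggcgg
The ATG within the capitals is the annotated start codon of GENCODE vM21 in these 7 genes, and also in Atp5j2 of complex V, so that the motif match and the beginning of the coding sequence cannot be told apart. Of the members past the threshold below, Ndufs4 has the match at base 36, and Atp5j and Atp5pb of complex V also hold the letters. Ndufa4, Ndufb3, Cox7b and Cox6b2 do not, and Uqcrb has no window. A link between match and call was not tested.

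The MYC binding motif, the E-box CACGTG (a palindrome), is shown because the transgene encodes MYC. It was present in 6 of the 66 members with a window (9.09%) and in 8.91% of all genes with one, 2 of the 6 being in complex I and 4 in complex V. Capitals mark the E-box.
Ndufa7 (chr17:33824488-33824517, plus strand): gcggagaggagtCACGTGagcaggggatgc
Ndufv1 (chr19:4012907-4012936, minus strand): agcagagggcgaCACGTGagcctggtttac
Atp5g1 (chr11:96075658-96075687, minus strand): agggactccgaaCACGTGggtgggggagct
Atp5g3 (chr2:73911547-73911576, minus strand): acccctgcctggCACGTGcaaggagcgagg
Atp5l (chr9:44920872-44920901, minus strand): ctcaggattcttCACGTGttatcgcgcctc
Atp5pb (chr3:105959484-105959513, minus strand): aCACGTGgtgtacctctgcgcaaccgcccc
Members with the E-box had a median log2 change of -0.22 in E against WT and -0.05 in CE against C, and the 60 without it -0.20 and -0.05. The palindromic 10-base NRF1 motif was present in 5 member promoters (7.58%, against 1.47% of all), those of Ndufa11, Uqcrc1, Cox6a1, Atp5g2 and Atp5k. The ETS motif CCGGAAG was present on either strand in 16 (24.2%, against 12.9%). None of the 4 motifs was present in 34 of the 66 (51.5%, against 76.2%). The members with AAGATGGC had a median log2 change of -0.48 in C against WT and those without it -0.41. With and without the NRF1 motif the medians were -0.43 and -0.44, and with and without the ETS motif -0.44 and -0.41. A match describes the letters of a window and was not tested for binding.

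Levels per transcript length (TPM, computed over all genes with a length) ranged widely within each complex. The median member was at 279 TPM over the 12 libraries, against 16.9 TPM for the genes tested. In complex I, Ndufa4 was highest at 878 TPM and Ndufb4 lowest at 18.8. Ndufa4 carries a complex I name, but its protein is known as a subunit of complex IV. In complex II, the iron-sulfur subunit gene Sdhb was highest at 279 TPM and the membrane anchor gene Sdhd lowest at 18.4. In complex III, Uqcrh, the hinge protein next to cytochrome c1, was at 716 TPM and Uqcrq at 203. In complex IV, Cox8a was highest at 1420 TPM and Cox7a1, the muscle form, lowest at 4.57. In complex V, the catalytic subunit gene Atp5b was highest at 1397 TPM and Atp5l lowest at 68.9. The level of some members is less certain. Atp5l shared 84.8% of the 50-base words of its transcript with other genes, including 12 pseudogenes, and the labels do not state how reads matching several places were counted. In all, 47 of the 81 members shared such words with another gene and 21 shared over 20%.

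**Figure D1:**
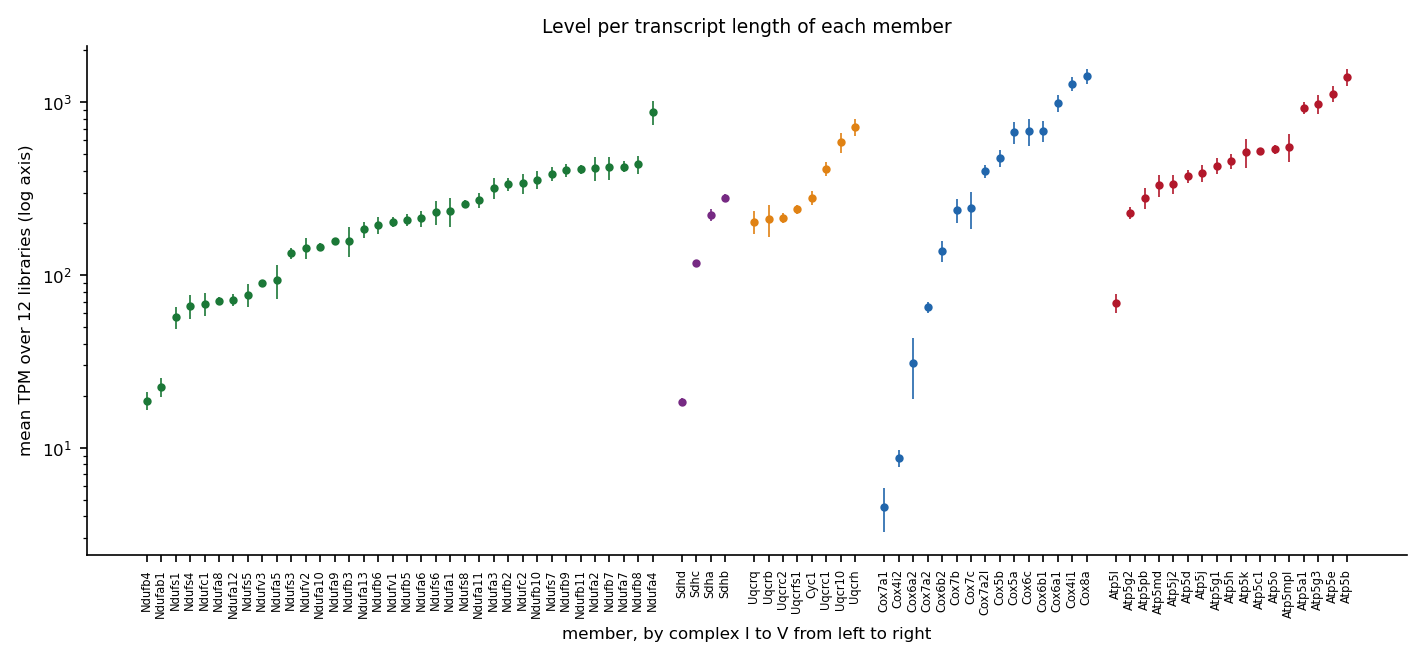
Mean TPM over the 12 libraries (log axis) of the members, 1 of which is not shown, ordered within complexes I to V, with error bars of 1 SD over libraries. Levels span from 4.57 TPM (Cox7a1) to 1420 TPM (Cox8a), both in complex IV.

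Paralogs with tissue-restricted forms were present almost wholly as the widely expressed form, with one exception. Cox4i1 made up 99.3% of the Cox4 TPM, and Cox6a1 96.9% of Cox6a, on average over the 12 libraries. Cox8a made up 99.99% of Cox8, and Ndufa4 99.98% of its pair with Ndufa4l2. Cox6b2, named for its testis expression, made up 16.8% of Cox6b TPM, and 14.7 to 17.9% in single libraries. In the Cox7a set, Cox7a2l made up 85.1%, Cox7a2 13.97% and Cox7a1 0.974%. The c-ring of complex V has an identical mature subunit from several genes, and here Atp5g3 gave 59.6%, Atp5g1 26.3% and Atp5g2 14.1%. These shares are less certain, because Atp5g1 and Atp5g2 shared 66.0% and 87.4% of their 50-base words with other genes and Atp5g3 shared 0%. Cox6b2 made up 16.9% ± 0.722, 17.0% ± 0.776, 16.3% ± 1.44 and 16.9% ± 0.917 in WT, E, C and CE (SD, n = 3 each), and these means differed by less than the SD within C. Cox6a2, the muscle form, ranged from 1.45% in E2 to 5.63% in E1 of the same group.

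The mean log2 CPM of the 81 members, set relative to the mean of WT, summarises each library. WT2, WT3 and WT4 were at 0.15, -0.19 and 0.04, and E1, E2 and E3 at 0.02, -0.31 and -0.25. C1, C2 and C3 were at -0.39, -0.25 and -0.43, and CE1, CE2 and CE3 at -0.38, -0.54 and -0.34. Every C library was below every WT library, and every CE library below every E library, whereas E overlapped WT and CE overlapped C. Complexes I and III showed the same order of groups. Complex V did so for CE and E, while C2 at -0.204 lay just above WT3 at -0.206. Complex II lay nearest to WT. Its group means were -0.10 ± 0.09 for E, -0.16 ± 0.08 for C and -0.20 ± 0.09 for CE (SD, n = 3), and both knockout groups overlapped their controls. In complex IV, E2 was at -0.43, below CE3 at -0.38, so that E and CE overlapped there. These values are relative to the other RNA in a library, and fewer mitochondria per cell, less of these mRNAs per cell and another mix of cells cannot be told apart in bulk RNA.

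**Figure D2:**
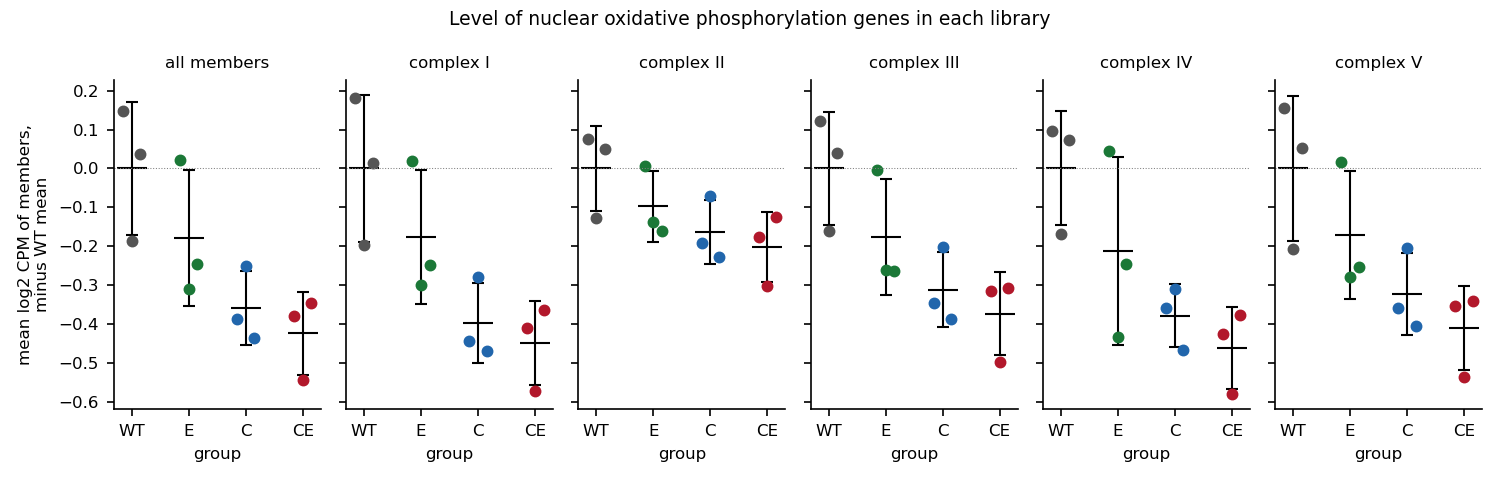
Mean log2 CPM of the members in each library minus the WT mean, for all 81 members and for complexes I to V. Points are libraries, horizontal bars group means and error bars 1 SD (n = 3). The C libraries (-0.25 to -0.43 for all members) sit below the WT libraries (0.15 to -0.19), and E spans from 0.02 to -0.31.

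The first question was what the transgene did to these genes with the caspases present (E against WT) and absent (CE against C). The threshold was a p below 0.05 after Benjamini-Hochberg adjustment across all 14473 genes in edgeR's quasi-likelihood test. No member passed it in either comparison. Over all genes 0.0829% passed in E against WT and 0.207% in CE against C, in either direction. In E against WT the median member had a log2 change of -0.19 and 77 of 81 were below 0, beside a median of -0.00 over all genes. All tested genes with transcripts under 700 bases had a median of -0.14 in E against WT, and the 34 members of that length -0.22. At an unadjusted p under 0.05 there were 6 members and 952 of all genes. In CE against C the median member had a log2 change of -0.05, 65 of 81 were below 0, and no member had an unadjusted p under 0.05. Standard errors of single members ranged from 0.09 to 0.39, with a median of 0.13, in both. Medians by complex in E against WT were -0.19 in I, -0.11 in II, -0.21 in III, -0.22 in IV and -0.17 in V. In CE against C they were -0.02, -0.07, -0.06, -0.04 and -0.08.

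The members with the smallest p in E against WT show how small these differences were. Ndufv1, the subunit that binds NADH and flavin, was at 200, 172 and 228 CPM in WT2, WT3 and WT4 and 176, 163 and 155 in E1, E2 and E3 (log2 -0.28, SE 0.11, edgeR adjusted p = 0.720). E1 lay above WT3, so the groups overlapped. Cyc1, cytochrome c1, was at 241, 217 and 281 CPM in WT and 214, 212 and 187 in E (log2 -0.27, SE 0.12, adjusted p = 0.747). It was the single member with every E library below every WT library, which 3.56% of all genes showed. Sdhb, Cox8a and Atp5k, the members with the smallest p of complexes II, IV and V, had log2 changes of -0.20, -0.29 and -0.34. In CE against C the members with the smallest p were Ndufs1 (log2 -0.18), Sdha (-0.09), Uqcrb (-0.18), Cox7b (-0.22) and Atp5pb (-0.18), each with an edgeR adjusted p of 0.999. There, 7 of 81 members had every CE library below every C library, against 7.86% of all genes, a share near that of the members.

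The difference between both transgene effects (CE against C minus E against WT) had a median of 0.15 over the members and 0.01 over all genes, and 68 of 81 members were above 0. No member passed, and 0% of all genes did, by edgeR. At an unadjusted p under 0.05 there were 0 members and 305 of all genes. The members' adjusted p was 0.9997 throughout, with standard errors of 0.12 to 0.55. Across the 81 members, the log2 changes of E against WT and CE against C, which share no library, had a Pearson correlation of -0.02 and a Spearman correlation of -0.06, a description only, since members come from the same libraries.

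The second question was what the caspase knockout did without the transgene (C against WT) and with it (CE against E). Members were lower in the knockout in both. For C against WT the median member had a log2 change of -0.41, a level 1.33-fold lower, and 79 of 81 were below 0, while the median over all genes was -0.01. For CE against E the median was -0.25, or 1.19-fold lower, with 73 of 81 below 0, and the median over all genes was 0.00. Past the threshold, 2 members fell in C against WT, namely Ndufs4 and Cox6b2, where 0.297% of all genes passed as lower and 0.359% as higher. Calls of 7 members as lower were made in CE against E, for Ndufa4, Uqcrb, Ndufs4, Cox7b, Atp5pb, Ndufb3 and Atp5j, where 1.11% of all genes passed as lower and 0.477% as higher. No member passed as higher in either. Their adjusted p lay between 0.0398 and 0.0497, close to the threshold. With DESeq2, 42 members passed as lower in C against WT, where 4.47% of all genes did, and 17 in CE against E, where 4.89% did. No member passed with the covariate for Y-linked RNA or with length and GC trends removed, and none when any of 8 single libraries was left out in C against WT or any of 9 in CE against E.

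Both comparisons share no library, and the members' log2 changes in them had a Pearson correlation of 0.74 and a Spearman correlation of 0.74 (n = 81 members, a description). Of the members, 73 were below 0 in both. Every C library was below every WT library for 47 of the 81 members, against 13.9% of all genes, and every CE library was below every E library for 36, against 15.1%.

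**Figure D3:**
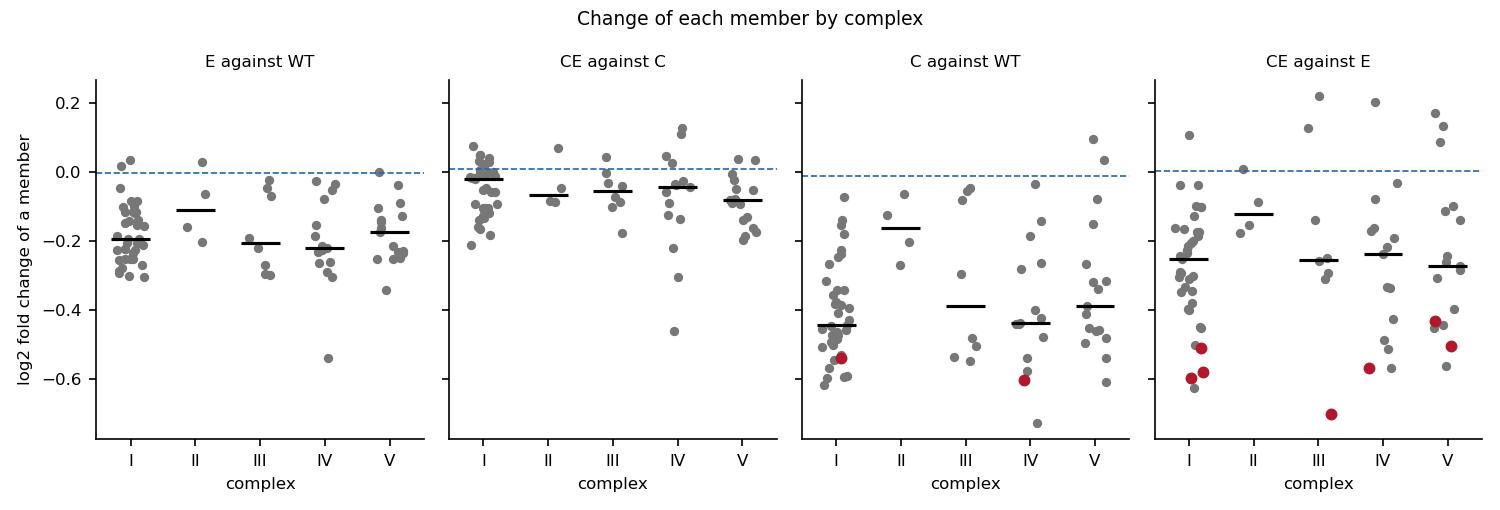
Log2 fold change of each member by complex in the 4 comparisons. Red points passed the threshold, grey points did not, black bars are medians of a complex and the dashed line is the median of all genes tested. Most points lie below the dashed line in C against WT, where the complex I median was -0.44 and the complex II median -0.16.

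In complex I the median log2 change was -0.44 in C against WT and -0.25 in CE against E. Every knockout library was below every library of the other group for 22 and 18 of the 37 genes. Of all genes, 13.9% and 15.1% showed this. Ndufs4 (gene 17993, mm10 chromosome 13, 114287795 to 114388094) encodes an accessory subunit of the matrix arm whose loss in mice is used as a model of mitochondrial encephalopathy. It was at 85.9, 69.6 and 66.1 CPM in WT2, WT3 and WT4 and at 49.7, 52.2 and 50.6 in C1, C2 and C3. It was at 78.3, 63.3 and 67.4 CPM in E1, E2 and E3 and at 50.2, 47.6 and 48.9 in CE1, CE2 and CE3. All 6 knockout libraries lay below all 6 others. Without the transgene the fall was 1.45-fold (log2 -0.54, SE 0.11, edgeR adjusted p = 0.0461). With it the fall was 1.43-fold (log2 -0.51, SE 0.11, edgeR adjusted p = 0.0403).

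Ndufa4 (gene 17992, chromosome 6, 11900372 to 11907450) was at 375, 310 and 332 CPM in WT and 392, 328 and 310 in E, against 245, 261 and 236 in C and 251, 205 and 226 in CE. The knockout libraries again lay below all others. From E to CE it fell 1.51-fold (log2 -0.60, SE 0.11, adjusted p = 0.0398), and in C against WT its log2 change was -0.46 with an adjusted p of 0.0572. Ndufb3 (gene 66495, chromosome 1, 58586397 to 58595964), an accessory subunit of the membrane arm, was at 98.5, 74.8 and 71.4 CPM in WT, 90.7, 65.1 and 69.6 in E, 55.1, 56.4 and 50.9 in C, and 49.97, 47.0 and 53.9 in CE. From E to CE it fell 1.49-fold (log2 -0.58, SE 0.14, adjusted p = 0.0497).

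Within complex I the redox core and the accessory subunits differed in the size of their estimates. These and the like differences within complexes below are descriptions and were not tested. The 7 core genes that carry flavin or iron-sulfur clusters or line their path had a median of -0.24 in C against WT and -0.17 in CE against E. The 30 accessory genes had medians of -0.46 and -0.29. Ndufv1 had log2 changes of -0.15 and 0.11. Ndufs8 had -0.24 and -0.04, Ndufs7 -0.46 and -0.20, and Ndufs1, which holds several iron-sulfur clusters, -0.18 and -0.40. None of these passed the threshold.

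Complex II was the complex with the smallest medians, -0.16 in C against WT and -0.12 in CE against E, and none of its 4 genes passed. It also had the longest median transcript, 2065.5 bases, against 861 in complex I, 1441.5 in III, 645 in IV and 731 in V. Changes by transcript length are given below. Sdha, the flavoprotein that oxidises succinate, was at 383, 355 and 333 CPM in WT, 373, 364 and 355 in E, 331, 355 and 338 in C, and 337, 318 and 310 in CE. The ranges of WT and C overlapped, and those of E and CE did not (log2 -0.18, SE 0.09, edgeR adjusted p = 0.244). Sdhc, a membrane anchor, had a log2 change of -0.27 in C against WT and -0.15 in CE against E. Sdhb had -0.20 and -0.09, and Sdhd, counted at about 12 CPM, -0.12 and 0.01.

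In complex III the small subunits had lower estimates than each core gene in C against WT, while in CE against E the ranges overlapped. Uqcrb (gene 67530, chromosome 13, 66900576 to 66905350), a small subunit near the site of coenzyme Q, had the largest fall past the threshold in CE against E among the members. It was at 87.4, 72.2 and 62.9 CPM in WT, 84.7, 65.6 and 68.6 in E, 49.6, 52.3 and 50.5 in C, and 48.9, 44.5 and 41.4 in CE. The 6 knockout libraries lay below the 6 others, and the fall in CE against E was 1.62-fold (log2 -0.70, SE 0.13, edgeR adjusted p = 0.0398). In C against WT its log2 change was -0.55 with an adjusted p of 0.0513. The 4 small subunit genes had medians of -0.52 in C against WT and -0.30 in CE against E.

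The 4 core genes of complex III had medians of -0.07 and -0.01. Uqcrc1, a core protein, was at 371, 330 and 444 CPM in WT, 351, 323 and 310 in E, 360, 399 and 351 in C, and 377, 337 and 429 in CE. Its log2 change was -0.05 in C against WT and 0.22 in CE against E (SE 0.12, edgeR adjusted p = 0.302), and the groups overlapped in both. Cyc1 had log2 changes of -0.06 and 0.13. Uqcrfs1, the Rieske iron-sulfur protein, had -0.30 and -0.26.

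In complex IV, whose catalytic core is encoded by mitochondrial DNA, the medians were -0.44 in C against WT and -0.24 in CE against E. Cox7b (gene 66142, chromosome X, 106015700 to 106022450), a small structural subunit, was at 181, 141 and 135 CPM in WT, 168, 140 and 133 in E, 115, 124 and 107 in C, and 110, 96.4 and 91.5 in CE. From E to CE it fell 1.48-fold (log2 -0.57, SE 0.12, edgeR adjusted p = 0.0405). Cox6b2 (gene 333182, chromosome 7, 4751792 to 4753094) was at 57.5, 44.2 and 52.7 CPM in WT and 36.2, 33.6 and 31.8 in C, with no overlap, and fell 1.52-fold (log2 -0.60, SE 0.12, adjusted p = 0.0461). In E it was at 49.5, 38.5 and 44.5 CPM and in CE at 33.6, 33.1 and 38.1 (log2 -0.34, adjusted p = 0.123), and E2 lay only just above CE3. Its widely expressed paralog Cox6b1 had log2 changes of -0.54 and -0.33.

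Cox7c, a small subunit, had the most negative estimate of all members in C against WT, a log2 change of -0.73 (SE 0.17, edgeR adjusted p = 0.0525). WT2 lay far above WT3 and WT4, and the C libraries lay together below them. The regulatory subunit Cox4i1 had log2 changes of -0.42 in C against WT and -0.17 in CE against E. Cox5a and Cox5b, further main subunits, had -0.48 and -0.43 and -0.44 and -0.24. None of these passed.

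In complex V the median estimate of the F1 head was nearer to 0 than that of the stalk and membrane part, with overlapping ranges. The F1 head genes Atp5a1 and Atp5b, which encode the alpha and beta subunits of the catalytic ring, were the 2 members above 0 in C against WT. Atp5b was at 1327, 1335 and 1669 CPM in WT, 1372, 1318 and 1177 in E, 1472, 1682 and 1474 in C, and 1480, 1358 and 1509 in CE. Its log2 change was 0.10 in C against WT and 0.17 in CE against E (SE 0.12 in both, edgeR adjusted p = 0.664 and 0.408). Atp5a1 had log2 changes of 0.03 and 0.09, and Atp5c1, the gamma subunit of the rotor, -0.15 and -0.11. Atp5d, the delta subunit of F1, had -0.08 and 0.13, while Atp5e, the epsilon subunit, had -0.45 and -0.24.

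The 9 genes of the stalk and membrane part of complex V had medians of -0.46 in C against WT and -0.43 in CE against E. Atp5pb (gene 11950, chromosome 3, 105942698 to 105959263), the b subunit of the peripheral stalk, was at 317, 273 and 234 CPM in WT, 307, 255 and 263 in E, 212, 230 and 219 in C, and 213, 184 and 185 in CE. From E to CE it fell 1.42-fold (log2 -0.50, SE 0.12, edgeR adjusted p = 0.0457). Atp5j (gene 11957, chromosome 16, 84827871 to 84835857), coupling factor 6 of the same stalk, was at 222, 172 and 187 CPM in WT, 201, 183 and 182 in E, 151, 165 and 143 in C, and 147, 134 and 139 in CE. It fell 1.35-fold (log2 -0.43, SE 0.10, adjusted p = 0.0497). Atp5k, subunit e of the membrane part, had a log2 change of -0.61 in C against WT (adjusted p = 0.0557) and -0.44 in CE against E. The 3 c-ring genes had medians of -0.39 and -0.26.

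**Figure D4:**
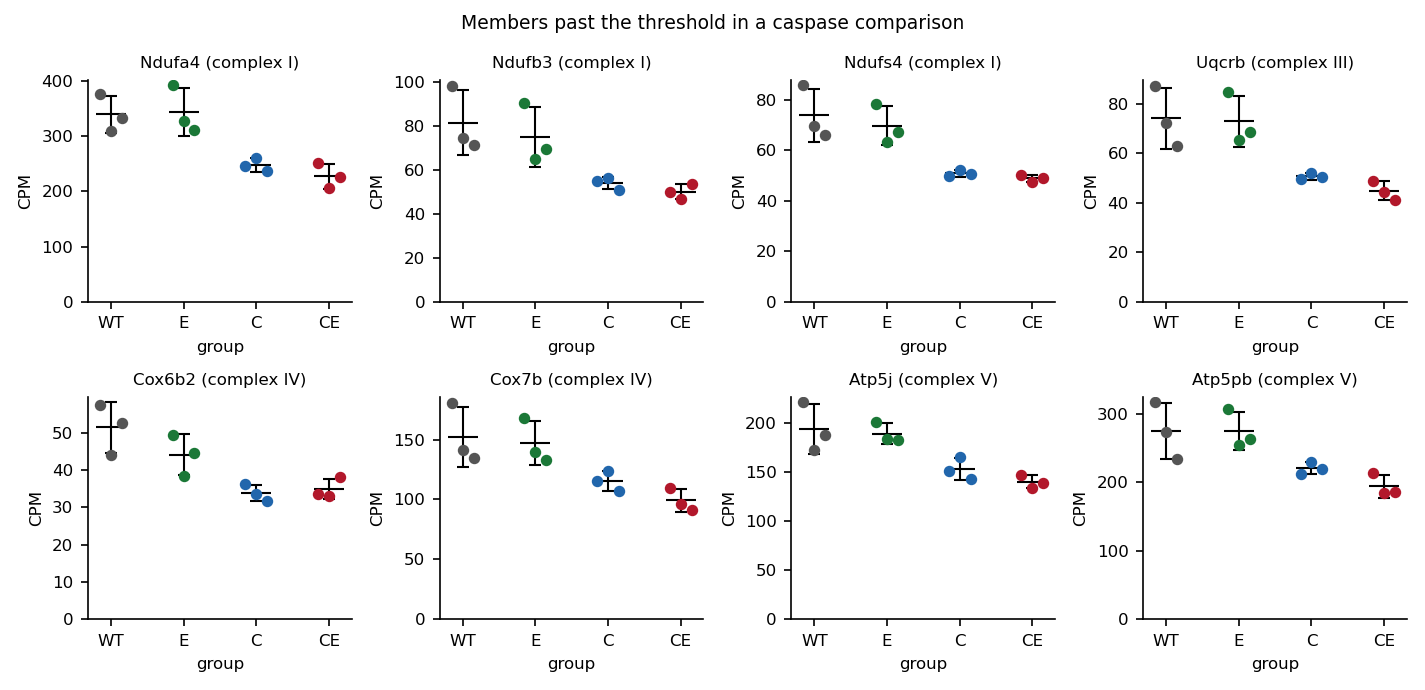
CPM in each library of the 8 members that passed the threshold in C against WT or CE against E, with axes from 0. Points are libraries, bars group means and error bars 1 SD (n = 3). Ndufs4 lies at 47.6 to 52.2 CPM in the C and CE libraries and at 63.3 to 85.9 in the WT and E libraries.

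The members that differed most between the parts of a complex also differed in transcript length. The median transcript of a member was 758 bases, against 2771.5 bases for all genes tested. The complex I core genes had a median of 1623 bases and the accessory genes 718. In C against WT, the log2 changes of the members had a Pearson correlation of 0.56 with log2 transcript length (n = 81 genes, which share the libraries, a description), and the 13986 tested genes with a length 0.33. The values for CE against E were 0.37 and 0.20, in E against WT 0.37 and 0.14, and in CE against C 0.12 and -0.02. Spearman correlations, in the same order, were 0.54 and 0.46, 0.41 and 0.28, 0.34 and 0.26, and 0.12 and 0.02.

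Most short genes were also lower in the knockout, and to a lesser extent in E against WT. Of all tested genes under 700 bases, 78.2% were below 0 in C against WT and 74.7% in CE against E. In E against WT 66.4% were, and in CE against C 56.8%. From 700 to under 1200 bases, the medians in E against WT were -0.19 for the members and -0.11 for all genes. In C against WT, the 34 members with transcripts under 700 bases had a median of -0.47 and the 648 tested genes of that length -0.36. From 700 to under 1200 bases the medians were -0.39 (25 members) and -0.28, and from 1200 to under 2000 bases -0.23 (16 members) and -0.12. From 2000 to under 3000 bases they were -0.07 (4 members) and -0.02, and the 2 members of 3000 bases or more, Ndufab1 and Sdhc, were at -0.49 and -0.27 beside a median of 0.10. The medians of members and of all genes in CE against E were -0.33 and -0.22 under 700 bases, -0.20 and -0.17 from 700 to under 1200, and -0.12 and -0.04 from 1200 to under 2000. They were -0.14 and 0.01 from 2000 to under 3000 bases (4 members), and -0.20 and 0.07 at 3000 bases or more (2 members). In each bin of both knockout comparisons the members' median lay below that of genes of like length. Under 2000 bases, where 75 of the members lie, it was nearer to that median than to the median of all genes. With per-library trends on transcript length and GC content removed, the member median was -0.17 in C against WT and -0.09 in CE against E, and no member passed. Atp5b and Atp5a1, with transcripts of 1916 and 2471 bases, Uqcrc1 with 1653 and Ndufv1 with 1661 are among the longer members. Exceptions by length included Ndufs4 with 1698 bases and Ndufv2 with 1697, at -0.54 and -0.45 in C against WT. Their transcripts held 43.1% and 42.0% GC, against a median of 51.7% over the members. Not every longer member that fell was as poor in GC. Uqcrq has 1521 bases and 50.2% GC, and the 4 small subunit genes of complex III, Uqcrq among them, lay at -0.55 to -0.48. With GC content, the members' log2 changes had Pearson correlations of 0.16 in C against WT and 0.53 in CE against E. They were -0.44 in E against WT and 0.37 in CE against C. Over all genes with a length, these values were 0.14, 0.26, -0.17 and -0.02. Spearman correlations with GC, in the same order, were 0.20, 0.50, -0.42 and 0.46 for the members and 0.19, 0.42, -0.31 and 0.06 for all genes. The part of GC content was not tested, except by the alternative settings.

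**Figure D5:**
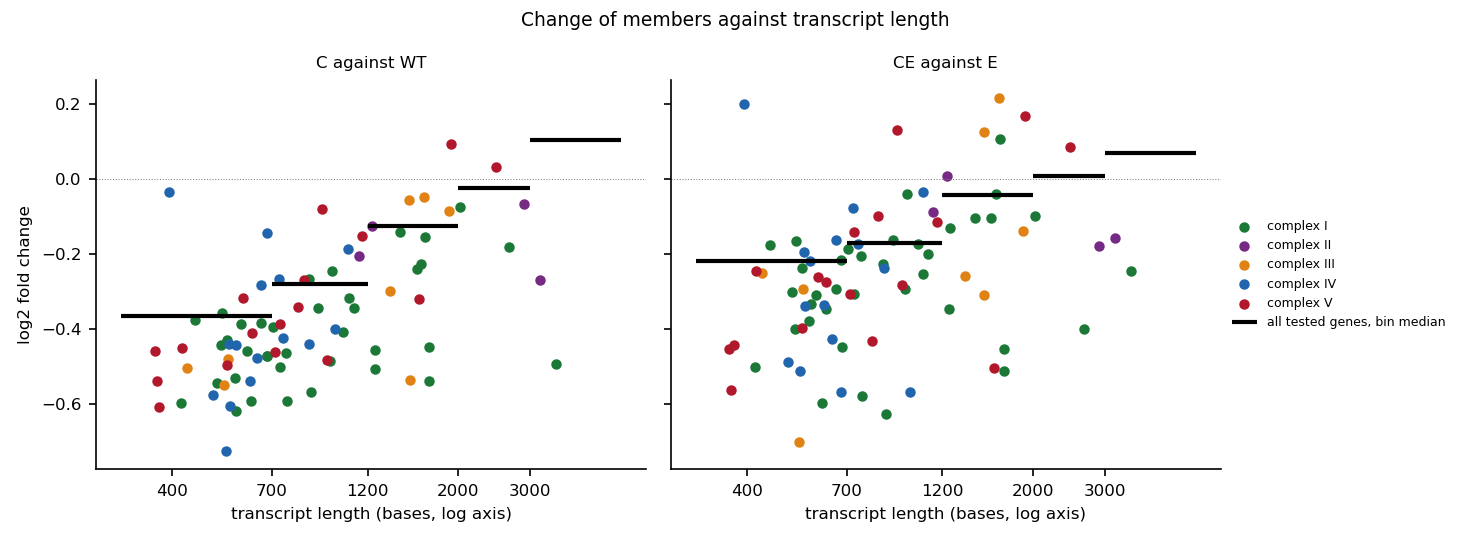
Log2 fold change of each member against transcript length (log axis) in C against WT and CE against E, coloured by complex. Black lines are the medians of all tested genes in 5 length bins. In C against WT the lines climb from -0.36 under 700 bases to 0.10 at 3000 bases or more, and most members lie below them.

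Y-linked RNA also moved with the knockout. With a covariate for it the member median was -0.25 in C against WT and -0.17 in CE against E, and no member passed in either, in a fit where only CE3 separates the covariate from the knockout. CE3, which lacks Y-linked RNA like the E libraries, had a member median of -0.16 relative to the E mean, and 38 of 81 members (46.9%) below every E library, where 32.3% of all genes were. CE1 and CE2 had medians of -0.19 and -0.38, with 51 and 70 members below every E library, where 29.5% and 30.8% of all genes were. The median was therefore below 0 in each CE library. The members on chromosome X were Ndufa1, Ndufb11 and Cox7b, with log2 changes of -0.60, -0.34 and -0.40 in C against WT.

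Sequence shared with other genes was compared with the estimates. The 34 members that share no 50-base word had a median of -0.44 in C against WT and -0.25 in CE against E, and the 21 that share over 20% had -0.41 and -0.27. Of the members past the threshold, Uqcrb shared 43.4% and Atp5pb 38.7% of their words with other genes, so their counts are less certain. Ndufs4 and Cox6b2 were among the 34 that share none.

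Few other genes of the pathway passed the threshold. Neither transgene comparison had a call among the 15 complex I, 4 complex II, 6 complex III, 19 complex IV and 5 complex V assembly genes tested, the 14 genes of mobile carriers and coenzyme Q synthesis, the 12 transcriptional regulators, the 13 TCA cycle genes and the 8 mitochondrial mRNAs. The comparison of C with WT had 2 that fell, both of complex IV assembly: Cox16 (log2 -0.50, SE 0.10, edgeR adjusted p = 0.0499) and the copper chaperone Cox17 (log2 -0.73, SE 0.15, adjusted p = 0.0499). Both fell as well from E to CE (log2 -0.49 and -0.68, adjusted p = 0.0398 and 0.0434), as did Ndufaf2, a complex I assembly factor that takes the place of a subunit during assembly (log2 -0.59, adjusted p = 0.0403), and Sucla2, a subunit of succinyl-CoA ligase (log2 -0.63, adjusted p = 0.0456). None rose. Over 24 alternatives, the calls of Cox16 and Cox17 in C against WT were lost in 14 and 13. In CE against E the calls of Cox16, Cox17, Ndufaf2 and Sucla2 were lost in 14, 15, 15 and 14.

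Medians of these lists in C against WT were -0.22, -0.26, -0.37, -0.26 and -0.16 for assembly of complexes I to V, -0.19 for carriers and coenzyme Q, and -0.06 for the TCA cycle. The regulators, which include Ppargc1a, Nrf1, Gabpa, Yy1 and Tfam, had a median of 0.01, and 4 of 12 were below 0. Of the 13 mitochondrial mRNAs listed, only 8 passed the filter on low counts and were tested. These 8 had a median of -0.71 in C against WT, and all 8 were below 0 without passing the threshold. ND3, with a log2 change of -1.58, was lowest (SE 0.37, edgeR adjusted p = 0.0525), and ND5, at -0.48, was nearest to 0. The 8 had a median of -0.39 in CE against E, -0.22 in E against WT and 0.07 in CE against C.

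Markers of other cells the sort could hold moved in part with the groups. In WT, E, C and CE, B lineage markers summed to 88.1 to 162, 63.2 to 75.1, 145 to 212 and 63.6 to 71.5 CPM, and 6 of 8 were lower past the threshold in CE against C and 2 of 8 in E against WT. Erythroid markers summed to 113 to 285, 62.4 to 179, 119 to 143 and 55.4 to 81.7 CPM. Markers of basophils, eosinophils and mast cells summed to 165 to 260, 92.4 to 283, 93.0 to 137 and 71.1 to 73.2 CPM. Macrophage markers summed to 18.8 to 23.5, 19.6 to 35.3, 14.2 to 17.8 and 12.8 to 16.4 CPM, so that the 6 knockout libraries lay below the 6 others. Of these markers, 2 of 6 were lower past the threshold in CE against E. Proliferation markers summed to 1204 to 1851, 1421 to 1652, 1345 to 1399 and 1011 to 1381 CPM, and 2 of 7 were lower past the threshold in CE against E. Over all genes, 0.207% passed in CE against C and 0.0829% in E against WT, in either direction. In CE against E 1.11% passed as lower. No list had a marker at 0 in every library. The part of these cells and of proliferation in the members' values was not tested.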

How the data were processed

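Total RNA of sorted hematopoietic stem cells was sequenced from 12 mice. The authors deposited raw counts per gene for 27179 NCBI Gene numbers. Per the submitters' processing notes, reads were aligned with STAR 2.5.3 to mm10. The counter, its strand setting and its annotation are not stated there or in the labels. RefSeq symbols (GRCm38.p6) matched 25275 genes, and the other 1904, with 0.546 to 2.45% of a library's counts, stayed in the tests. The members and lists were chosen with earlier results of these data known.

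All 12 libraries were fitted by group with edgeR 4.0.16 (R 4.3.3): TMM factors, filterByExpr, quasi-likelihood F tests (two-sided, 8 residual degrees of freedom) and Benjamini-Hochberg adjustment over 14473 genes, with a biological coefficient of variation of 0.139. The pipeline was tested on simulated data. Named members are those past the threshold, those with the smallest p of each complex and comparison, central subunits, paralogs, extremes of level, and pathway genes past the threshold; others, such as Cox7c, Ndufv2, Atp5d, Atp5e and ND3, were chosen after their values were seen. Transcript lengths came from 1 GENCODE vM21 transcript per gene. Replicate numbers do not pair the mice. Alternatives used RLE factors, other filters, DESeq2 1.42.0, limma 3.58.1 voom with quality weights, fewer libraries, a replicate block, a Y-linked covariate, or length and GC trends removed. Some genes under the naming rule are not reported here.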

Additional observations from a re-analysis of the deposited data

How the results depend on the processing

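In all 24 alternatives the member median stayed below 0 in E against WT (-0.30 to -0.10), C against WT (-0.53 to -0.17) and CE against E (-0.29 to -0.07). In CE against C it ranged from -0.17 to 0.01 and was above 0 without C2 (0.005) and without CE2 (0.01). No member passed in E against WT, in CE against C or in the difference of the transgene effects under any alternative run.

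Counts of members called lower moved widely, and so did the share of all genes called lower in the same fit, given in brackets. In C against WT (2 members) the count was 50 [3.79%] with no filter on low counts, 7 [0.783%] with the stricter one, 42 [4.47%] with DESeq2, 30 [6.34%] with limma voom, 31 [6.92%] with the replicate block and 47 [6.59%] with the GC trend alone removed. It was 0 with only the groups compared [0.057%], with the Y-linked covariate [0.00691%], with length and GC trends [0.164%] or the length trend alone [0.0715%] removed, and without C1 and C3 together [0.00666%]. Leaving out single libraries gave 0 to 50: 50 [3.68%] without WT3, 31 [7.14%] without WT4, 18 [1.28%] without E1, 2 [0.363%] without CE3 and 0 without any other.

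In CE against E (7 members) it was 5 [0.967%] with RLE factors, 18 [2.78%] with no filter, 17 [4.89%] with DESeq2, 18 [5.47%] with limma voom, 14 [3.37%] with only the groups compared and 16 [5.49%] with the replicate block. It was 0 with the Y-linked covariate [0.00691%], with length and GC trends [0.0644%], the length trend alone [0.122%] or the GC trend alone [0.2%] removed, and without C1 and C3 together [0.00666%]. Leaving out single libraries gave 0 to 18: 18 [4.29%] without WT2, 5 [0.672%] without WT3, 17 [5.93%] without WT4 and 0 without any other. The calls of Ndufs4 and Cox6b2 in C against WT were each lost in 13 of the 24 alternatives.

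Medians moved by more than the library SD of 0.142 to -0.25 with the Y-linked covariate, -0.17 with length and GC trends removed and -0.17 with the length trend alone removed in C against WT. They moved to -0.087 and -0.074 with the latter 2 in CE against E. The alternatives with the length trend alone or the GC trend alone removed were chosen after seeing the data. The cause was not tested. Same-numbered libraries correlated at -0.244 to 0.166 (15 pairs) and others at -0.259 to 0.282, so the block rests on a shared number.

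With 3 libraries per group, standard errors near 0.13 leave single differences of the size seen here at the limit of detection. Without C1 and C3, group C is a single library assumed to vary like the others.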
